A study of Saccharomyces cerevisiae with 6 samples.

Results

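The proteasome is the protease complex that degrades proteins tagged with ubiquitin, and its genes were taken as every gene whose symbol in the probe annotation follows the PRE, PUP, SCL1, RPN or RPT naming of proteasome genes. This rule found 34 genes among the 5449 budding yeast genes on the array, each measured by 1 probe set and none of them marked by the manufacturer as able to cross-hybridise. Of these, 32 encode subunits, 14 in the core particle and 18 in the regulatory particle. The other members are RPN4, which encodes the transcription factor that activates proteasome genes, and RPN14, which encodes a chaperone that helps assemble the regulatory particle. SEM1, which encodes a further lid subunit, is not matched by the rule and is treated with the associated genes.

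Expression was measured on 6 Affymetrix arrays of Saccharomyces cerevisiae in the W303 background, a widely used laboratory strain, grown at 30 °C in YPD, a rich medium, and harvested in log phase. Wild type and a strain deleted for RPH1 had 3 arrays each, called biological samples in the design text and numbered 1 to 3. The labels name no allele other than the rph1 deletion and do not say whether the deletion arrays came from 1 clone or several, so p-values measure the spread between these cultures. Rph1 is a JmjC-domain histone demethylase with zinc fingers, and the comparison asks which genes it regulates without stress; the stated interest is the link from DNA damage signals to the general stress response.

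In the core particle, rings of alpha subunits gate the entry of substrates and rings of beta subunits hold the protease sites. The regulatory particle caps the core. Its base carries a ring of Rpt ATPases that unfold substrates, and its lid removes ubiquitin. In budding yeast Rpn4 binds the promoters of most subunit genes and is itself degraded by the proteasome, so that proteasome gene expression is coupled to proteasome capacity.

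The labels of the arrays were checked on RPH1 itself, whose signal was 305, 362 and 385 on wild-type arrays 1, 2 and 3 but 4.52, 8.18 and 8.99 on deletion arrays 1, 2 and 3 (limma adjusted p = 0.00196). The level of fission yeast probe sets on the same array, used as background, had a 95th percentile of 8.59 to 12.7 on the 6 arrays. The labels give the replicate 1 arrays another form of sample code than the arrays of replicates 2 and 3, and the dap spike-in control gave 0.0959 and 2.02 on the replicate 1 arrays against 42.7 to 55.0 on the other 4. Each of these sets holds both genotypes, so results are also given within them. The 3'/5' signal ratio of ACT1 was 1.20 and 1.10 on the replicate 1 arrays and 0.999 to 1.11 on the others. The summed signal of 5 marker genes of the alpha mating type was 16433 to 20582 over the 6 arrays, and that of 7 a-type markers was 273 to 403.

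All 34 proteasome genes were well above background. The subunit signals lay between 1386.5 and 3425 on every array, and RPN14 read at least 293. The labels name budding yeast as the only organism, and the 22 fission yeast probe sets for proteasome genes of the same names, which belong to the background set, read at most 23.2 on any array. Signals of different probe sets are not comparable as levels, so each gene is compared with itself across arrays.

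**Figure D1:**
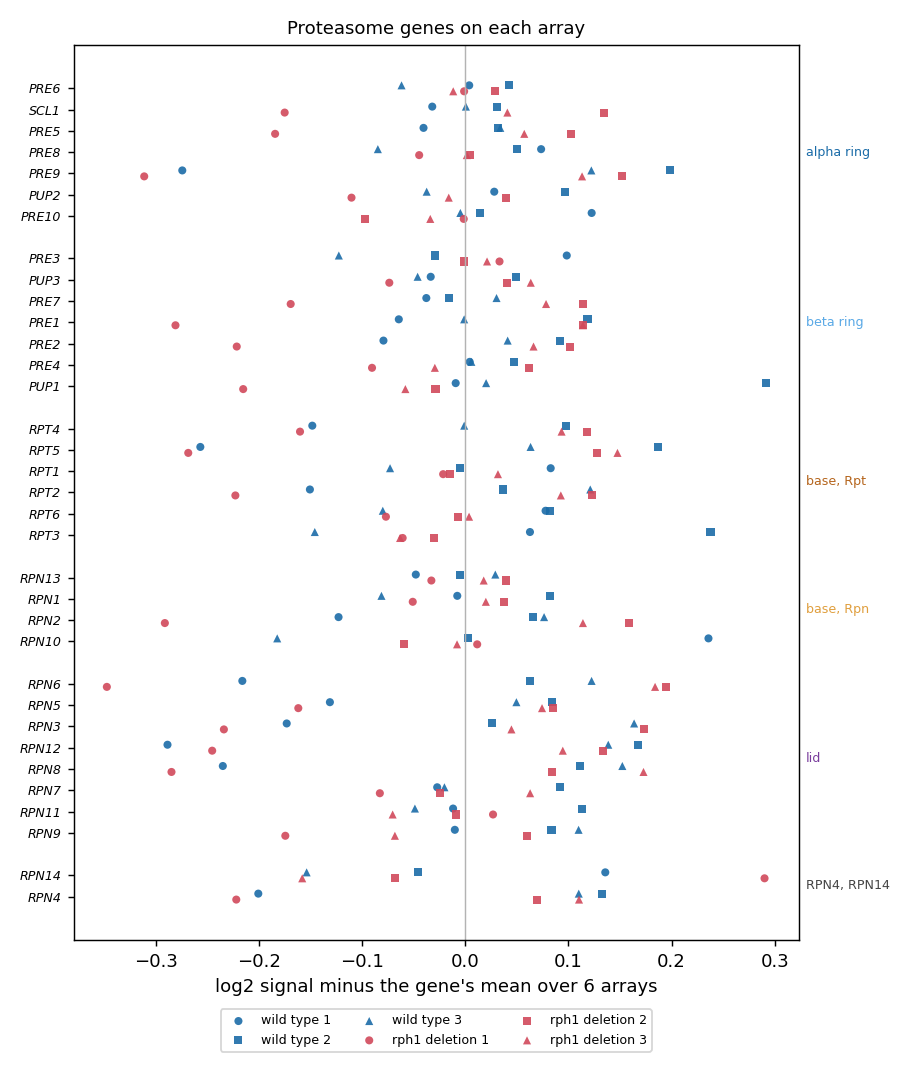
Log2 signal of each of the 34 proteasome genes on the 6 arrays, as the difference from that gene's own mean (x axis), with genes grouped by subcomplex (y axis), blue for wild type, red for the rph1 deletion and the marker shape giving the replicate number. Circles, the replicate 1 arrays, lie to the left for many subunits and for RPN4 in both colours, while blue and red overlap for all subunits except PUP1.

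Deletion of RPH1 gave no called difference in any proteasome gene. The linear model fit (limma, Benjamini-Hochberg adjustment over 5402 tested genes, threshold 0.05) called 0 of 32 subunits, against 0.0370% of all tested genes, and 0 subunits had an unadjusted p under 0.05, against 5.33%. Of the subunits, 10 were higher and 22 lower in the deletion, with a median log2 difference of -0.015, where 2725 of all genes were higher and 2677 lower, with a median of 0.0012. The subunit differences lay between -0.20 and 0.035 on the log2 scale. Median centring shifted every gene by the same amount, and under it every subunit was lower in the deletion. The highest, PRE3, was then at -0.00049. Their median size, 0.023, was below the 0.068 of all tested genes.

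The arrays bound how large a difference could have gone unseen. Taken gene by gene, the 95% confidence intervals of the subunits lay within -0.46 and 0.44 on the log2 scale, and all 32 were inside a log2 bound of 0.5 on either side. Of all tested genes 4032 had an interval inside that bound. For SCL1, an alpha ring gene with a log2 difference of 0.00035, the interval ran from 0.850-fold to 1.18-fold of wild type.

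RPN4 read 954, 1202 and 1183 in wild type 1, 2 and 3, against 939.9, 1150.5 and 1183 in the deletion. The genotypes overlapped, and each deletion array lay close to the wild-type array of the same number. The log2 difference was -0.028 (SE 0.13, 95% interval -0.35 to 0.30, limma adjusted p = 1.00), and the exact permutation test gave p = 0.6, where 0.1 is the smallest that 3 arrays against 3 allow. RPN14 read 359.7, 317 and 294 in wild type, against 400.4, 312 and 293 in the deletion, so that the genotypes differed by 0.043 on the log2 scale (SE 0.14, limma adjusted p = 1.00).

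The largest subunit difference was that of PUP1, which encodes the beta subunit with the trypsin-like site. It read 2442, 3008 and 2492 in wild type 1, 2 and 3, against 2117, 2409 and 2361 in the deletion. Every deletion array lay below every wild-type array, which held for 1 of 32 subunits and for 3.04% of all tested genes, while 0 subunits and 7.55% of genes lay wholly above. Its log2 difference came to -0.20 with an SE of 0.11 (limma adjusted p = 1.00). With the replicate number as a block the unadjusted p was 0.0337 and the adjusted p = 0.336, and with the sample-code set as a term they were 0.0446 and 0.327. PUP1 was the only subunit at an unadjusted p under 0.05 in these fits, where 13.0% and 14.6% of all genes were.

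The other subunits at the low end also missed the test. RPN9, of the lid, read 1951, 2082 and 2119.7 in wild type, against 1741, 2047 and 1874 in the deletion, and the genotypes overlapped (log2 difference -0.12, SE 0.088). RPT3, of the ATPase ring, read 1998, 2256 and 1729 in wild type, a wide spread that took in its deletion values of 1834, 1873 and 1831 (-0.10, SE 0.11). PRE10, of the alpha ring, read 2983, 2768 and 2731 in wild type, against 2737, 2562 and 2676 in the deletion (-0.088, SE 0.074), again with overlap. At the high end stood PRE3, which encodes the beta subunit with the caspase-like site, at 0.035 (SE 0.082), the ATPase gene RPT4 at 0.034 (SE 0.11), the lid gene RPN6 at 0.021 (SE 0.18) and the beta subunit gene PUP3 at 0.020 (SE 0.076). Under median centring these 4 differences turned slightly negative. PRE3 read 3021, 2766 and 2592 in wild type, against 2888, 2819.8 and 2864 in the deletion. RPT4 read 1692, 2006 and 1873 in wild type, against 1678, 2035 and 2000.0 in the deletion. RPN6 read 1897, 2302 and 2399 in wild type, against 1732, 2521 and 2503 in the deletion, and PUP3 read 3126, 3310.3 and 3099 against 3040.3, 3291.5 and 3344. In each of these 4 genes the values of the genotypes were interleaved.

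**Figure D2:**
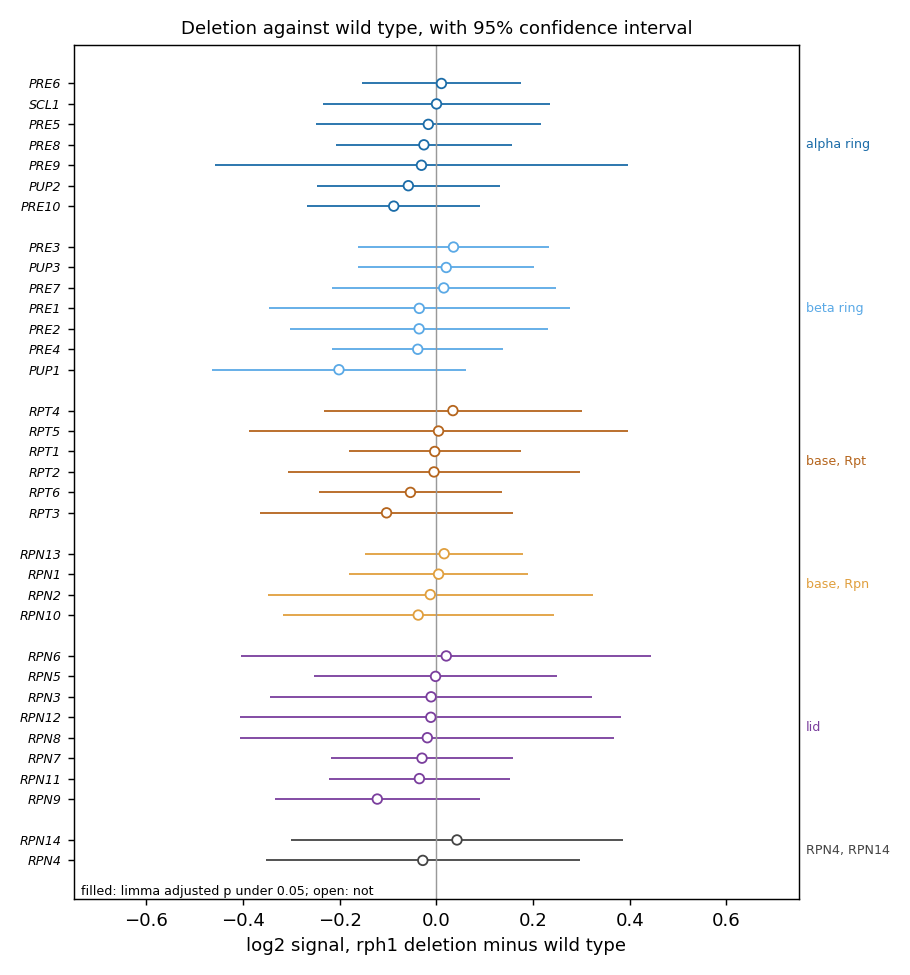
Log2 difference of each proteasome gene, rph1 deletion minus wild type (x axis), with its 95% confidence interval as a bar from the limma fit on 3 arrays per genotype, genes grouped by subcomplex. Every interval takes in 0 and every symbol is open, since no gene had an adjusted p under 0.05.

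Core and regulatory particle did not separate between the genotypes. The median log2 difference was -0.028 over the 14 core genes, with 9 lower, and -0.011 over the 18 regulatory particle genes, with 13 lower. The alpha ring gave -0.026, the beta ring -0.035, the base ATPases -0.0041, the other base genes -0.0039 and the lid -0.015. For each array the mean log2 signal of the core genes, relative to each gene's own mean, was set against that of the regulatory particle genes. Core minus regulatory particle was 0.059, -0.012 and -0.029 in wild type 1, 2 and 3, against 0.017, -0.011 and -0.023 in the deletion. The genotype means differed by -0.012, less than the SD of 0.047 between wild-type arrays. These are descriptions with no test, since the members were grouped with earlier results known.

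Pair by pair, the deletion minus wild-type difference was not the same in the 3 replicate numbers, as a description with no test. Within replicates 2 and 3 the pairing is not resolved, so the counts by pair there depend on the numbers in the titles. In replicate 1 the deletion array was lower for 29 of 32 subunits (median -0.099), among them all 14 core genes, while 2502 of 5402 genes were lower in that pair. In replicate 2 it was lower for 19 (median -0.012) and in replicate 3 for 10 (median 0.039). Lower values in all 3 pairs were found for 4 subunits (PUP1, RPN9, PRE10 and PRE9) and higher values in all 3 for 0, against 14.7% and 19.9% of all tested genes. PRE9, an alpha ring gene named here after its values were seen, had the smallest of these differences in size. Its pair differences were -0.037, -0.047 and -0.0090.

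Whether the genotype difference itself depended on the set was tested as an interaction between genotype and sample-code set. It was called for 0 of 32 subunits and 0.00% of all tested genes, and 0 subunits had an unadjusted p under 0.05, against 6.63% of genes. The interaction was positive, that is, the difference was higher in replicates 2 and 3 than in the replicate 1 pair, for 30 of 32 subunits, with a median of 0.080 against -0.014 over all genes. It rests on a single array of each genotype on the replicate 1 side and has 2 residual degrees of freedom.

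Some proteasome genes differed between the replicate sets. Each side of this comparison is a single set, so its p-values measure the spread between arrays within sets and not between sets. With genotype as a covariate, limma called 12 of 32 subunits higher in replicates 2 and 3 than in replicate 1 and 0 lower, or 37.5%, where 18.5% of all tested genes were called higher and 18.4% lower, 36.9% in all. All 4 arrays of replicates 2 and 3 lay above both replicate 1 arrays for 17 subunits and below both for 2, against 25.1% and 28.1% of all genes. The called log2 differences were 0.22 to 0.44, or 1.16-fold to 1.36-fold. The median over the subunits was 0.15, and -0.0037 over all genes. The 12 genes were measured on the same 6 arrays and are not independent, and no test of the list was made. The share of called subunits depended on the replicate 1 arrays. Without wild type replicate 1, so that only the deletion arrays carried the set difference, 7 subunits were called higher (21.9%, against 7.15% of all genes). Without deletion replicate 1 it was 2, PRE9 and RPN12 (6.25%, against 5.63%), close to the background, and the subunit median was 0.061. The dap control given above moved with the same sets, and its part in the result was not tested. The ACT1 ratios of the sets overlapped, but within each genotype the replicate 1 array had the highest ratio. It was 1.20 against 1.11 and 1.02 in wild type, and 1.10 against 0.999 and 1.06 in the deletion. The part of this ratio in the result was not tested either.

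RPN4 differed in the same direction. In both genotypes its replicate 1 signal (954 and 939.9) lay below all 4 signals of replicates 2 and 3 (1150.5 to 1202). Its log2 difference came to 0.32 with an SE of 0.051 (limma adjusted p = 0.00818), or 1.25-fold. The log2 difference was as large, 0.31 and 0.32, when wild type replicate 1 or deletion replicate 1 was left out, but the limma adjusted p was then 0.0566 and 0.0602. RPN14 differed the other way, with 359.7 and 400.4 in replicate 1 and 293 to 317 in replicates 2 and 3. Its log2 difference was -0.32 (SE 0.070, limma adjusted p = 0.0182), and leaving out deletion replicate 1 (0.140), 2 (0.0569) or 3 (0.0507) or wild type replicate 1 (0.0515) ended the call.

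The lid held the most called genes, 5 of 8, where 18.5% of all tested genes were called higher. The subcomplexes were not tested against each other. RPN6, whose product clamps the regulatory particle to the core, read 1897 and 1732 in replicate 1 and 2302 to 2521 in replicates 2 and 3, a log2 difference of 0.42 (SE 0.070). RPN12, a late lid subunit in assembly, read 1459.6 and 1504 in replicate 1 and 1904 to 2002 in the others, at 0.40 (SE 0.054). RPN8, the partner of the deubiquitinating subunit Rpn11, differed by 0.39 (SE 0.056), RPN3 by 0.31 (SE 0.070) and RPN5 by 0.22 (SE 0.051). RPN11 itself did not pass, at -0.011 (SE 0.070), nor did RPN7 at 0.083 (SE 0.062) or RPN9 at 0.14 (SE 0.061). The lid median was 0.26. SEM1, the lid subunit gene not matched by the rule, is left out of these lid values and differed more. It read 1231 and 1307 in replicate 1 and 1826 to 2280 in replicates 2 and 3. Its log2 difference was 0.70 (SE 0.11, limma adjusted p = 0.00758). SEM1 was not followed through the alternative settings.

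Against 18.5% of all tested genes called higher, 4 of 10 base genes were called. They were the ATPase genes RPT5 at 0.39 (SE 0.059), RPT2 at 0.28 (SE 0.058) and RPT4 at 0.23 (SE 0.058), and RPN2, which encodes a large scaffold subunit, at 0.31 (SE 0.070). RPT3 and RPT6 were at -0.0015 and -0.00068, RPT1 at -0.046, and the ubiquitin receptor genes RPN1, RPN13 and RPN10 at 0.044, 0.061 and -0.19, and none of these passed.

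In the core particle 3 of 14 genes were called, close to the 18.5% of all tested genes called higher. PRE9 had the largest difference of the 32 subunits matched by the rule. It read 2193 and 2138 in replicate 1 and 2869.6 to 3044 in replicates 2 and 3 (0.44, SE 0.054, limma adjusted p = 0.00433). PRE1 differed by 0.26 (SE 0.080), and PRE2, which encodes the subunit with the chymotrypsin-like site, by 0.23 (SE 0.061). The genes of the other protease sites, PUP1 at 0.17 (SE 0.084) and PRE3 at -0.099 (SE 0.063), did not pass. The remaining core genes lay between -0.091 (PRE10) and 0.17 (PRE5). The core median was 0.12 and that of the regulatory particle 0.18, and the difference between the particles was not tested.

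Leaving out single arrays of replicates 2 and 3 also changed the count of called subunits. Without deletion replicate 2 it was 5 of 32 subunits (15.6%, against 10.9% of all genes called higher), and without deletion replicate 3 it was 7 (21.9%, against 12.4%). PRE1 and PRE2 were also not called without wild type replicate 2 (limma adjusted p = 0.0882 and 0.0588), while PUP1 was called without wild type replicate 3 (0.0418). With median centring PRE1 (limma adjusted p = 0.0849), PRE2 (0.0650) and RPT4 (0.0527) were not called, and with no filter PRE1 was not (0.0548). RPT4 also missed without deletion replicate 2 (0.0895) and without deletion replicate 3 (0.0733). PRE9 and RPN12 were called under all 14 alternative settings that were run, each of the 6 arrays left out in turn included. RPN6 (limma adjusted p = 0.0664), RPT5 (0.0597) and RPN8 (0.0575) missed only without deletion replicate 1.

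**Figure D3:**
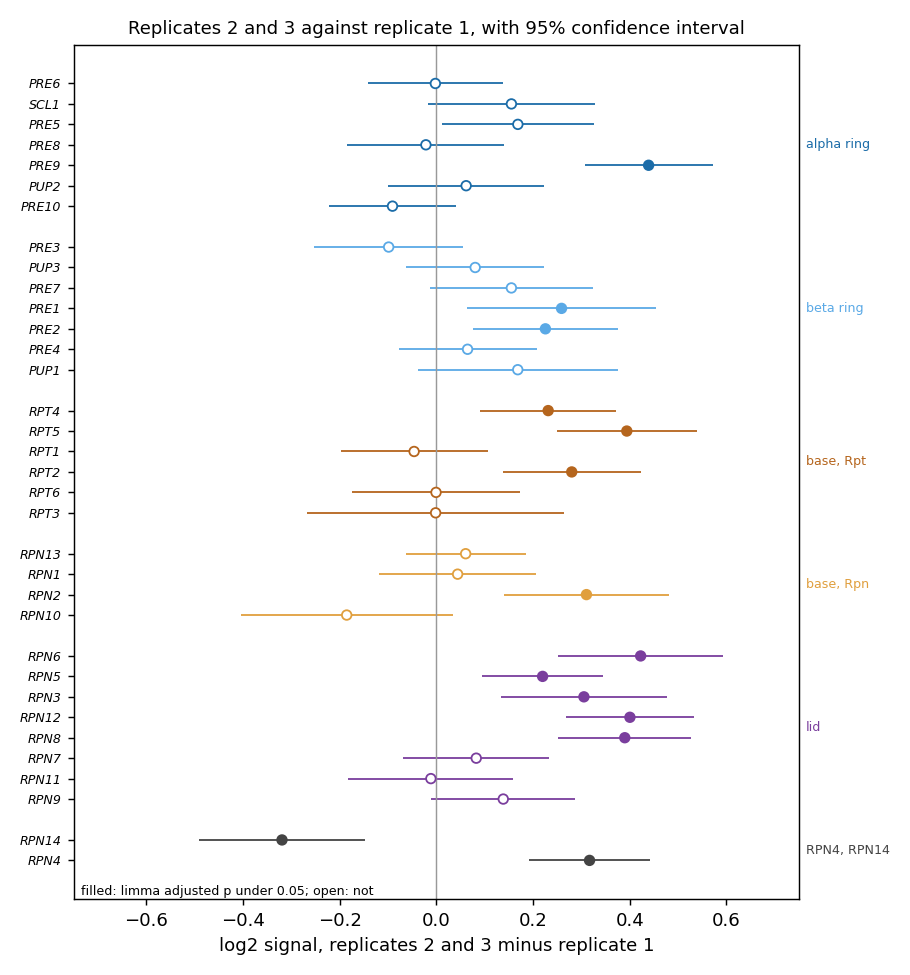
Log2 difference of each proteasome gene, replicates 2 and 3 minus replicate 1 with genotype as covariate (x axis), with its 95% confidence interval from limma on 6 arrays, genes grouped by subcomplex. Filled symbols, with an adjusted p under 0.05, mark 12 subunits and RPN4 to the right of 0 and RPN14 to the left.

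In the fit with genotype as the only term, the spread within genotypes differed between the subcomplexes. No test of this was made. The median residual SD of the subunits was 0.11 on the log2 scale, against 0.14 over all tested genes, and was lowest in the alpha ring (0.071) and highest in the lid (0.16). With the replicate number as a block the subunit median was 0.063 and that of all genes 0.080, and the lid (0.059) and the alpha ring (0.057) lay close together. With the sample-code set as a term in place of the block, the medians were 0.062 for the subunits and 0.080 for all genes. The alpha ring was then at 0.066 and the lid at 0.058.

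By array, the mean over all 32 subunits, as log2 difference from each gene's own mean, was -0.050, 0.079 and 0.0090 in wild type 1, 2 and 3, against -0.14, 0.061 and 0.042 in the deletion. RPN4 stood at -0.20, 0.13 and 0.11 in wild type and -0.22, 0.070 and 0.11 in the deletion. The replicate 1 arrays were the lowest of their genotype on both measures. The subunit mean was lower on deletion 1 than on wild type 1, where RPN4 was nearly level. On wild type 3 RPN4 and the lid (0.083) were high, while the core genes (-0.0075) and the base genes (-0.027) were near their own means.

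**Figure D4:**
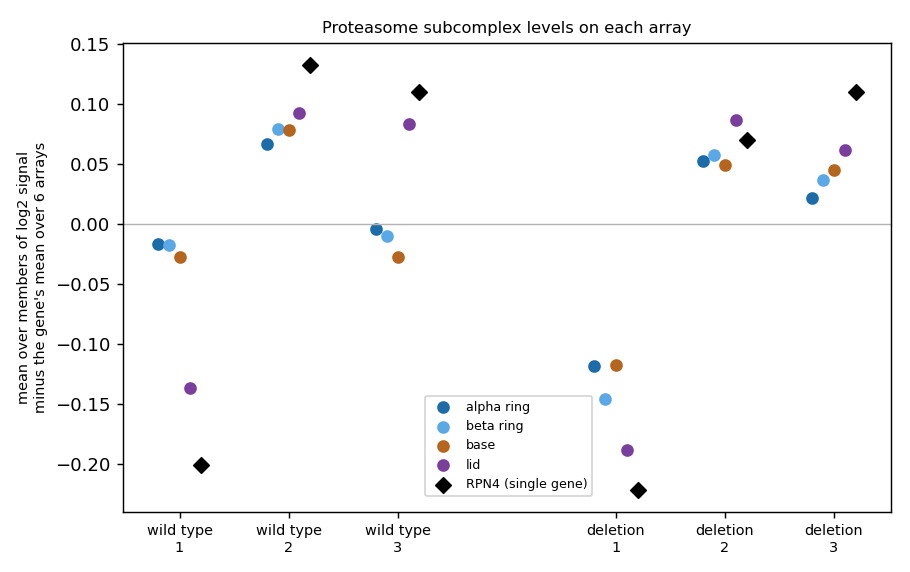
Mean over the genes of each subcomplex of the log2 signal minus the gene's own mean over 6 arrays (y axis), with RPN4 as a single gene (black diamonds), on each of the 6 arrays (x axis). RPN4 and the lid are lowest on the replicate 1 arrays of both genotypes, at -0.20 and -0.14 in wild type and -0.22 and -0.19 in the deletion.

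The other genes of the ubiquitin and proteasome pathway were taken from 8 lists, together 81 genes on the array, all of them tested. Between genotypes 0 were called, 4 had an unadjusted p under 0.05, all higher in the deletion, and the median log2 difference was 0.024, with 49 higher and 32 lower. Over all tested genes 5.33% had such a p in either direction and 4.33% on the higher side, and 4 of 81 is close to these shares. Every deletion array lay above every wild-type array for 11 of the 81 and below for 1, against 7.55% and 3.04% of all tested genes.

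Among the assembly chaperones 6 of 9 were higher and 3 lower, with a median of 0.032. NAS2, whose product escorts the ATPase Rpt5 during assembly of the base, read 551, 453 and 470.1 in wild type 1, 2 and 3, against 667, 615 and 627 in the deletion. All deletion arrays were above all wild-type arrays, and the log2 difference was 0.38 (SE 0.097, unadjusted p = 0.00725, limma adjusted p = 0.441). With the sample-code set as a term the adjusted p was 0.0600, and with array weights, a fit that called 202 of all tested genes, it was 0.0131. NAS6, which escorts Rpt3, differed by 0.23 (SE 0.12), TMA17, a chaperone gene of the base, by 0.31 (SE 0.18), and ADD66, of core assembly, by 0.13 (SE 0.080). None of these passed.

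Of 8 other proteasome-associated genes, SEM1 among them, 6 were higher and 2 lower, with a median of 0.11. HUL5, a ubiquitin ligase bound to the proteasome, differed by 0.14 (SE 0.069), and BLM10, which caps the core in place of the regulatory particle, by 0.17 (SE 0.13).

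The ubiquitin conjugation genes gave medians near 0. Conjugating enzymes had a median of 0.014 over 13 genes. UBC8, which acts in the degradation of a gluconeogenic enzyme, read 498, 693 and 617 in wild type, against 829, 906 and 821 in the deletion, with no overlap (0.51, SE 0.13, limma adjusted p = 0.441). Ligases of quality control had a median of 0.010 over 13 genes, with HRD1, the ligase of the endoplasmic reticulum, at 0.24 (SE 0.078, limma adjusted p = 0.642, and 0.0378 with array weights). Shuttle factors and the Cdc48 complex had a median of 0.020 over 12 genes, with the shuttle gene RAD23 at -0.14 (SE 0.11) and the Cdc48 cofactor gene UFD1 at 0.12 (SE 0.086).

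Of 17 deubiquitinases 13 were higher and 4 lower, with a median of 0.059. DOA4, which recycles ubiquitin at the endosome, had the largest difference of the pathway genes named here, with 303, 344 and 335 in wild type, against 517, 492 and 527 in the deletion (0.65, SE 0.081, limma adjusted p = 0.130). With the sample-code set as a term it was the 1 gene of the 81 that was called (adjusted p = 0.0349), against 0.629% of all tested genes, and with the replicate block it was not (0.104). With array weights its adjusted p was 0.00975. UBP2, which acts against the ligase Rsp5, differed by 0.17 (SE 0.074). UBP7, another deubiquitinase gene, read 309, 304 and 294 in wild type, against 229, 280 and 279 in the deletion, and was the 1 gene of the 81 with every deletion array below every wild-type array. Its log2 difference was -0.21 (SE 0.10, limma adjusted p = 1.00), and -0.11 without deletion replicate 1. With the sample-code set as a term the limma adjusted p was 0.312.

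Of 7 regulators of RPN4, 2 were higher and 5 lower, with a median of -0.019, and none passed. HSF1, the heat shock factor gene, differed by 0.11 (SE 0.081), the drug-resistance factor genes PDR3 by -0.12 (SE 0.084) and PDR1 by -0.047 (SE 0.11), and MUB1, which works with the ligase Ubr2 in degrading Rpn4, by 0.058 (SE 0.12). The ubiquitin genes and the activating enzyme gene had a median of -0.11 over 5 genes, 4 of them lower.

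Between replicate sets, 23 of the 81 pathway genes were called higher in replicates 2 and 3 and 10 lower, against 18.5% and 18.4% of all genes. UBI4, the stress-inducible polyubiquitin gene, read 2204 and 1854 in replicate 1 and 3327 to 3559.8 in replicates 2 and 3 (0.79, SE 0.071, limma adjusted p = 0.00213). The ubiquitin genes fused to ribosomal proteins went the other way, with RPS31 at -0.40 (SE 0.075, limma adjusted p = 0.0117) and RPL40A at -0.24 (SE 0.064, limma adjusted p = 0.0311). UBA1, the gene of the ubiquitin-activating enzyme, read 1589.7 and 1597 in replicate 1 and 2402 to 2585 in replicates 2 and 3 (0.66, SE 0.057, limma adjusted p = 0.00193). Of the regulators of RPN4, 3 of 7 were called higher in replicates 2 and 3. YAP1, which encodes an oxidative stress transcription factor, read 509 and 494 in replicate 1 and 837 to 921 in the others (0.80, SE 0.065, limma adjusted p = 0.00166). The others were PDR1 (0.23, limma adjusted p = 0.0303) and MUB1 (0.25, limma adjusted p = 0.0332). UBI4, UBA1 and YAP1 were called under every alternative that was run. RPL40A was at -0.039 with quantile normalization (limma adjusted p = 0.565). Without deletion replicate 2 or without deletion replicate 3, RPL40A (limma adjusted p = 0.0750 and 0.0776), PDR1 (0.0849 and 0.0846) and MUB1 (0.0968 and 0.0895) were not called. PDR1 also missed without wild type replicate 2 (0.0563), and MUB1 without wild type replicate 3 (0.0646). With quantile normalization PDR1 (limma adjusted p = 0.0565) and MUB1 (0.0519) were not called, nor was PDR1 with median centring (0.0580). Without wild type replicate 1 or without deletion replicate 1, RPS31 (0.0877 and 0.0716), RPL40A (0.208 and 0.0795), PDR1 (0.0772 and 0.198) and MUB1 (0.0648 and 0.233) were not called either.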

How the data were processed

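Expression was measured on 6 Affymetrix arrays, 3 wild type and 3 rph1 deletion, with labelled cRNA made from 10 µg of total RNA per the labels' protocols. Each probe set has a deposited signal intensity, linear and not logged, which the authors made with MAS5 per the submitters' processing notes. Its version and its scaling target are not given in those notes.

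The log2 of each deposited signal was used with no further normalization. Probe sets were named through the platform's annotation, of which 7244 carry 1 gene symbol, 1 carries several and 3517 are unlisted. Gene identifiers were matched to the RefSeq gene table (assembly R64), which gave 5498 probe sets of 5449 budding yeast genes and 1746 taken as fission yeast. The probe set with the highest mean stood for a gene. Genes were tested if their mean log2 signal exceeded 3.06 (a signal of 8.32), the 95th percentile of the fission yeast probe-set means. This kept 5402 genes and left out 47. The number of arrays limits the precision.

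Genotypes were compared in R 4.3.3 by limma 3.58.1 (eBayes after lmFit, 2-sided, genotype as the only term, Benjamini-Hochberg over all tested genes, threshold 0.05). Further fits set replicates 2 and 3 against replicate 1 with genotype as covariate, and tested the interaction. Confidence intervals are per gene at 95% and unadjusted. Only the genotype fit was run on simulated data. These had independent noise for each array and no difference between replicate sets, so they do not bear on the other fits. Python 3.11.15 and matplotlib 3.10.9 drew the figures.

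The replicate numbers come from the titles. Deviations from the genotype means, correlated across genes, gave r = 0.77, 0.45 and 0.41 for numbers 1, 2 and 3, so same-numbered arrays were treated as pairs. Wild type 3 correlated more with deletion 2 (0.54), and wild type 2 with deletion 3 (0.47), than with the array of the same number, so beyond the sample-code sets the pairing is not resolved.

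The members and gene lists were chosen with earlier results of these data known. Named with values on every array were RPH1, RPN4, RPN14, and the 4 subunits with the largest and the 4 with the smallest difference. Up to 4 genes of each other list were named by unadjusted p. Of the pathway genes that passed between the replicate sets, SEM1 and those of the ubiquitin and RPN4 regulator lists were named. These were chosen after their values were seen. MIY1 of the deubiquitinase list had no match. Alternatives covered normalization, filter, offset, variance prior, array weights, probe-set averaging, pairing, sample-code set and leaving out arrays, of which leaving out a replicate 1 array in the comparison of the sets was added after the data were seen. Promoter and protein sequences were not analysed here.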

Additional observations from a re-analysis of the deposited data

How the results depend on the processing

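Between genotypes, 0 of 32 subunits were called under all 17 alternatives with a test. The smallest adjusted p of a subunit was 0.0835, for PUP1 with array weights, where 2 subunits had an unadjusted p under 0.05. The count over all tested genes was 2. It was 1 with quantile normalization, an offset of 32 or an intensity trend, 0 with a mean log2 signal above 6, 202 with array weights, 6 with the replicate block and 34 with the sample-code term, and 1 to 2 when single arrays were left out. Pairing through the replicate block changed no call of a proteasome gene or of another pathway gene. In the replicate 1 pair alone, which has no test, the median difference was -0.099 for all subunits and -0.13 for the core, the core median minus the regulatory particle median was -0.070, and RPH1 was at -6.08. In that pair PUP3 (-0.040), RPN6 (-0.13), RPT4 (-0.012), PRE3 (-0.065), SCL1 (-0.14), PDR3 (0.029) and MUB1 (-0.058) turned sign. Median centring turned every subunit that had been higher, among them PUP3 (-0.015), RPN6 (-0.015), RPT4 (-0.0017), PRE3 (-0.00049) and SCL1 (-0.036). RPN14 was -0.037 with array weights and -0.013 in replicates 2 and 3 only. When single arrays were left out, the regulatory particle median ran from -0.072 to 0.058, the difference of the core and regulatory particle medians from -0.044 to 0.029, RPN4 from -0.14 to 0.076, RPN14 from -0.092 to 0.13, PRE9 from -0.18 to 0.12, RPN6 from -0.082 to 0.20, RPT4 from -0.031 to 0.12, PRE3 from -0.017 to 0.094, PUP3 from -0.0062 to 0.062, SCL1 from -0.067 to 0.088, PDR1 from -0.11 to 0.049 and MUB1 from -0.0051 to 0.17.

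For replicates 2 and 3 against replicate 1, the 12 called subunits became 9 with median centring, 11 with no filter, 13 with an intensity trend, and 2 to 13 when single arrays were left out. There the count over all genes (1992) ran from 523 to 1935, the subunit median from 0.061 to 0.17 and RPN4 from 0.31 to 0.33. Leaving out a replicate 1 array was chosen after seeing the data. The sign turned for RPT3 (0.010) and PRE6 (0.0016) with quantile normalization and for RPT3 (0.032), RPT6 (0.019), RPN11 (0.0018) and PRE6 (0.012) with array weights. With single arrays left out, RPT3 ran from -0.082 to 0.083, RPT6 from -0.077 to 0.075, RPT1 from -0.12 to 0.030, RPN11 from -0.067 to 0.044, PRE6 from -0.023 to 0.022 and PRE8 from -0.091 to 0.048. The causes of these changes were not tested. The promoter motif alternatives were not run.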
